A study of Mus musculus with 33 samples.

Results

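Triggering receptors expressed on myeloid cells (Trem) and CD300 molecules are small immunoglobulin-type receptors of myeloid cells, and 10 genes of both families and their shared adaptor were followed here: *Trem1*, *Trem2*, *Trem3*, *Treml4*, *Tyrobp*, *Cd300a*, *Cd300e*, *Cd300lb*, *Cd300ld* and *Cd300lf*. They were taken by symbol from the 24421 genes counted in every sample, and all 10 were present and passed the filter on low counts in every comparison. The 33 samples were bulk RNA-seq libraries of 25000 sorted macrophages (macs) each, from mice of 6 to 8 weeks. Kupffer cells (KCs), the resident macs of the liver, formed 3 groups of 6: controls without Cre (CRE- KCs, genotype *Zeb2* fl/fl), and CRE+ cells sorted by the surface protein Tim4 into Tim4+ and Tim4- KCs (genotype *Clec4f-cre*x*Zeb2* fl/fl). Alveolar macs (AMs), the resident macs of the lung airspaces, formed 3 groups of 5: controls without Cre (CRE- AMs, genotype *Zeb2* fl/fl), and CRE+ cells sorted by CD11b into CD11b- and CD11b+ AMs (genotype *Itgax-cre*x*Zeb2* fl/fl). Every mouse thus carried the floxed *Zeb2* allele, on a C57Bl/6 background and in both sexes, and the controls were littermates without Cre. *Clec4f-cre* is driven by a KC gene but also acts in a minor B cell population, and *Itgax-cre* acts in other CD11c+ cells as well. The CRE+ sorts were made on Tim4 or CD11b and not on a marker of complete deletion, so that these samples may mix fully deleted and heterozygous cells.

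The receptors of both families signal through partners. *Trem1*, *Trem2*, *Trem3*, *Cd300e* and *Cd300lb* encode activating receptors that have no signalling motif of their own and pair with DAP12, the adaptor encoded by *Tyrobp*, whose ITAM motif recruits the kinase SYK, and *Cd300ld* encodes an activating member that pairs with the Fc receptor gamma chain encoded by *Fcer1g*. *Cd300a* and *Cd300lf* encode receptors with inhibitory ITIM motifs that recruit phosphatases such as SHP1. Treml4 is known for amplifying responses through TLR7. TREM1 amplifies inflammatory responses, TREM2 binds lipids and apolipoproteins and marks lipid-handling macs, and CD300 receptors bind phospholipids such as phosphatidylserine on dying cells.

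Gene counts summed to 9837240 to 24332306 reads a sample, the fewest in replicate 1 of the Tim4- KCs. *Zeb2*, the targeted gene, ran from 229 to 339 CPM (the count scaled to the library total) in CRE- KCs, from 146 to 211 in Tim4+ KCs, from 149 to 196 in Tim4- KCs, from 169 to 205 in CRE- AMs, from 84.7 to 114 in CD11b- AMs and from 50.3 to 70.2 in CD11b+ AMs. It was lower in every CRE+ sample than in every control of the same tissue, but the floxed allele still gives a truncated transcript, so that its count is an incomplete check of deletion. The summed level of 8 KC markers ran from 24500 to 26900 CPM in CRE- KCs, from 14100 to 15900 in Tim4+ KCs and from 10100 to 12000 in Tim4- KCs, with none of the 8 under 1 CPM on average. The 5 B cell markers summed to 47.5 to 95.6 CPM in CRE- KCs, 103 to 145 in Tim4+ and 155 to 286 in Tim4- KCs, and their part in the results was not tested. The summed level of 8 AM markers ran from 19100 to 29500 CPM in CRE- AMs, from 22200 to 31700 in CD11b- and from 39700 to 54600 in CD11b+ AMs, again with none under 1 CPM on average. Most of it was *Chil3*, with means of 24200, 24800 and 42500 CPM in this order. *Car4* (531, 747 and 1560 CPM) and *Marco* (405, 880 and 946 CPM) also had their highest means in CD11b+ AMs. *Siglecf* (528, 368 and 219 CPM), *Krt79* (410, 275 and 124 CPM), *Ear2* (431, 288 and 113 CPM), *Fabp4* (87.4, 38.6 and 16.4 CPM) and *Pparg* (247, 236 and 215 CPM) had their lowest means there. KC replicates 5 and 6 of each group held Y-linked counts and no *Xist*, while the other KC samples and all AM samples held *Xist*. The labels do not say whether samples of a group came from separate mice, so p-values measure the spread between these samples, and in bulk samples fewer cells of a type and less RNA per cell cannot be told apart.

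Both families lie in clusters. In GENCODE M21 (GRCm38), *Trem1*, *Trem3*, *Treml4* and *Trem2* lie in this order on the plus strand of chromosome 17 between 48232768 and 48354147, over 121380 bases. *Cd300a*, *Cd300lb*, *Cd300ld*, *Cd300e* and *Cd300lf* lie on chromosome 11 between 114890041 and 115133992, over 243952 bases, where all but *Cd300a* are on the minus strand, and *Tyrobp* lies alone on chromosome 7 between 30413760 and 30417585. RefSeq (GRCm38.p6) gave a promoter for 8 of the 10 genes. Those of the genes that rose in CRE+ KCs, as far as the table held them, and of the only member that fell there are shown, up to 250 bases upstream of the start site, 5′ to 3′ on the gene's strand, with the purine-rich core GAGGAA of PU.1, the ETS factor of myeloid cells, or its reverse complement TTCCTC in capitals. They stand at chr17:48232489-48232738 (plus strand, *Trem1*), chr17:48346151-48346400 (plus strand, *Trem2*), chr11:115133993-115134242 (minus strand, *Cd300lf*) and chr11:114989923-114990136 (minus strand, *Cd300ld*).
Trem1: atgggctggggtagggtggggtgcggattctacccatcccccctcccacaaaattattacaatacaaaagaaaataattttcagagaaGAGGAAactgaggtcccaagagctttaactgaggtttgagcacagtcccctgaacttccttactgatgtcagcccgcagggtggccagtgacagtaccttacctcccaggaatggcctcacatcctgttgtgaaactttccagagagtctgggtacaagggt
Trem2: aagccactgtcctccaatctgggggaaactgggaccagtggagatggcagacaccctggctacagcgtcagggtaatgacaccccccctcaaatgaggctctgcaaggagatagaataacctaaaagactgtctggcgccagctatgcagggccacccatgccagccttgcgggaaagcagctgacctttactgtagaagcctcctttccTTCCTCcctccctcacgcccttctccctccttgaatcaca
Cd300lf: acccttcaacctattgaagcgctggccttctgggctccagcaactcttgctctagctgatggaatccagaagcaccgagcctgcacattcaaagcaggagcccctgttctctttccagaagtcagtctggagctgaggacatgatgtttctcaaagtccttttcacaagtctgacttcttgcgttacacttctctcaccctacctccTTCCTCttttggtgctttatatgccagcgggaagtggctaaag
Cd300ld: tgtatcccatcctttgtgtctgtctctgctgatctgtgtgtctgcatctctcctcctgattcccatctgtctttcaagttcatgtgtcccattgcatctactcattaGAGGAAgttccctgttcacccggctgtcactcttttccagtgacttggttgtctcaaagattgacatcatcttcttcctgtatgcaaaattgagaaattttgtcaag

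Each of the 4 held 1 such core, which began 162 bases before the RefSeq start site in *Trem1*, 40 in *Trem2*, 43 in *Cd300lf* and 143 in *Cd300ld*. The *Cd300ld* sequence shown has only 214 bases, since it stops before the GENCODE start, which lies upstream of the RefSeq start. The core was found on either strand in the promoters of 6 of 8 members and in 23.3% of 32851 promoters, each searched over the same length before its RefSeq start, and only those of *Cd300e* and *Cd300lb* lacked it. The E-box CACCTG, or its reverse complement CAGGTG, which ZEB proteins bind, was in none of the 8 and in 17.2% of all promoters. A match or its absence describes these letters in this window only.

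The members were first ordered by level within each group, as CPM per kilobase of exon. *Tyrobp* was the highest in every group, from 1300 ± 51.2 (SD, n = 5) in CD11b- AMs to 1840 ± 307 (SD, n = 6) in Tim4- KCs, and lay above every other member in every sample. In CRE- KCs it was followed by *Cd300ld* at 313 ± 20.5, *Treml4* at 248 ± 14.3, *Cd300a* at 126 ± 7.34, *Cd300e* at 114 ± 18.7 and *Cd300lb* at 30.9 ± 5.36 (SD, n = 6), in all samples in that order except *Cd300a* and *Cd300e*, whose ranges overlapped. *Trem2*, *Cd300lf* and *Trem3* had mean levels between 4.29 and 6.83 CPM per kilobase, with overlapping ranges, and *Trem1* was the lowest at 0.0828 ± 0.117.

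CRE- AMs had another order. *Trem1* came after *Tyrobp* at 43.6 ± 2.52 CPM per kilobase (SD, n = 5), above *Cd300lf* at 24.9 ± 1.18 in every sample. From *Cd300lf* down to *Cd300e* at 7.48 ± 1.10 each member's range overlapped that of its neighbour, and *Trem3* was the lowest at 4.44 ± 0.473. CRE- KCs thus carried mostly *Cd300ld*, *Treml4*, *Cd300a* and *Cd300e*, while in CRE- AMs *Trem1* and *Cd300lf* led the receptors.

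**Figure D1:**
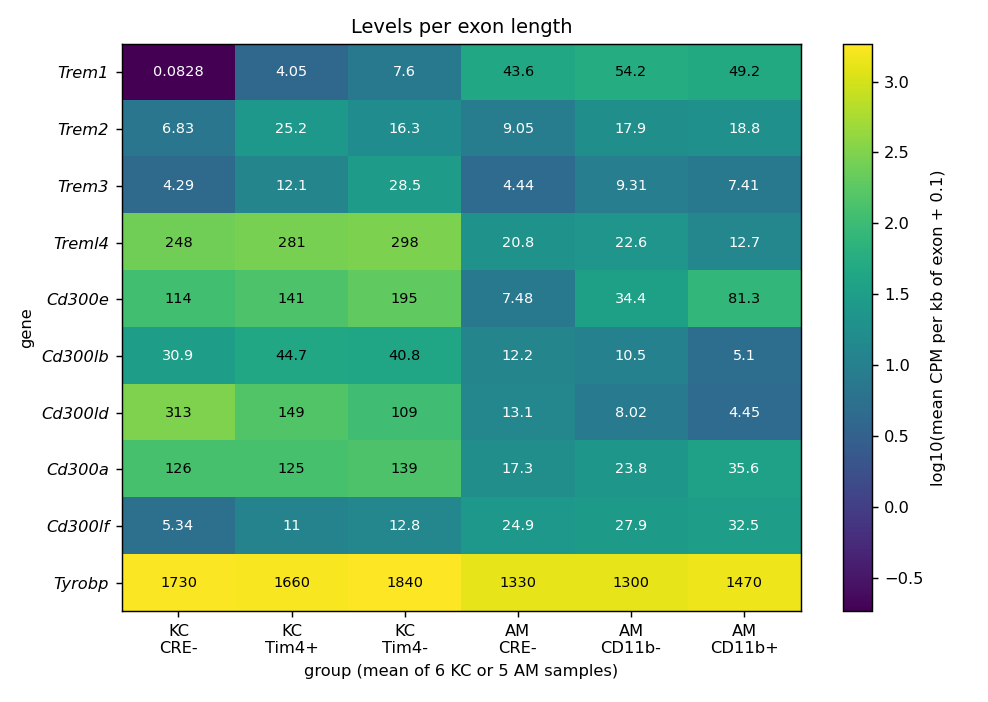
Mean CPM per kilobase of exon of each gene (rows) in each group (columns), written in each cell and coloured by its log10 after adding 0.1. The lowest cell is *Trem1* in CRE- KCs at 0.0828 and the highest is *Tyrobp* in Tim4- KCs at 1840.

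Control KCs and AMs were compared to place the genes in the normal tissues. These groups also differed in part in sex, since only CRE- KC replicates 5 and 6 held Y-linked counts and no *Xist*. Of the 10 members, 5 were higher in CRE- KCs and 2 lower (called: adjusted p under 0.05 with a log2 fold change beyond 1 either way). Over the 12145 genes tested 33.3% were called, 20.9% higher and 12.4% lower, and 8 members and 63.2% of all genes passed the adjusted p alone. The median log2 fold change of the members was 0.87 and that of all genes tested 0.03. The samples of the groups did not overlap for 8 of 10 members and for 48.7% of all genes. The activating receptors *Cd300ld* (log2 fold change 4.59 ± 0.079 SE, adjusted p = 7.28e-15), *Cd300e* (3.95 ± 0.15, adjusted p = 1.13e-11), *Treml4* (3.59 ± 0.11, adjusted p = 1.10e-12) and *Cd300lb* (1.35 ± 0.15, adjusted p = 1.42e-06) and the inhibitory *Cd300a* (2.88 ± 0.12, adjusted p = 4.16e-11) were higher in KCs in every sample. *Trem1* (-9.02 ± 0.40, adjusted p = 7.48e-11) and *Cd300lf* (-2.21 ± 0.081, adjusted p = 1.05e-11) were lower in KCs in every sample. The size for *Trem1* rests on 0 to 17 counts in CRE- KCs, and it was -9.89 without CRE- KC replicate 5 and -10.34 with limma-voom. *Tyrobp* differed by 0.39 ± 0.058 (adjusted p = 3.14e-05), under the fold threshold, and *Trem2* (-0.39, 95% interval -0.80 to 0.013) and *Trem3* (-0.04, -0.55 to 0.48) did not pass the test.

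The members were next compared between CRE+ and CRE- KCs. In both Tim4+ and Tim4- KCs 4 of 10 members rose, and these were *Trem1*, *Trem2*, *Trem3* and *Cd300lf* in either group, while *Cd300ld* fell. Over all 12500 genes tested, 2.31% were called in Tim4+ KCs, 1.94% higher and 0.376% lower, and 8.82% in Tim4- KCs, 3.43% higher and 5.39% lower. The adjusted p alone was passed by 6 members and 6.09% of all genes in Tim4+ KCs and by 8 members and 25.4% in Tim4- KCs. Groups did not overlap for 6 members and 4.82% of all genes in Tim4+ KCs and for 5 members and 11.0% in Tim4- KCs. The median log2 fold change of the members was 0.40 in Tim4+ and 0.56 in Tim4- KCs, against 0.00 and -0.03 for all genes tested. Both groups were compared with the same CRE- KCs.

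*Trem1* was near 0 in CRE- KCs and was counted in every CRE+ KC sample. In CRE- KCs it had no count in 3 of 6 samples and at most 17 counts in the others, giving a lowest, median and highest level of 0, 0.0791 and 0.851 CPM. In Tim4+ KCs these were 9.33, 12 and 15.7 CPM, and in Tim4- KCs 16.6, 21.3 and 31.2 CPM, from 203 and 179 counts upwards. Every CRE+ sample lay above every control, and every Tim4- sample above every Tim4+ sample. It rose by a log2 fold change of 5.57 ± 0.53 (adjusted p = 4.09e-07) in Tim4+ and 6.48 ± 0.54 (adjusted p = 2.60e-08) in Tim4- KCs, sizes that rest on the few control counts. Without CRE- KC replicate 5 these values were 6.46 and 7.37, and with limma-voom 6.92 and 7.84. The rise left *Trem1* well under the 122 to 138 CPM of CRE- AMs. *Trem1* is also a gene of neutrophils and monocytes. The summed level of the 10 neutrophil markers found, of 11 listed, ran from 87.5 to 133 CPM in CRE- KCs, from 89.8 to 125 in Tim4+ KCs and from 115 to 191 in Tim4- KCs, and most of it was *Csf3r*, with means of 67.2, 88.1 and 107 CPM. Of the defining neutrophil genes *S100a8* was at most 1.25 CPM and *Ngp* at 0 in every KC sample, and *S100a9* was at most 0.738 CPM in CRE-, 0.812 in Tim4+ and 5.1 in Tim4- KCs. The 7 markers of Ly6C-high monocytes summed to 179 to 312 CPM in CRE- KCs, 156 to 358 in Tim4+ and 290 to 823 in Tim4- KCs. Among them *Ly6c2* was at most 1.76 CPM and *Vcan* at 0 in all CRE+ KCs, while *Ccr2* ran from 2.27 to 7.40 CPM in CRE- KCs, from 9.97 to 30.6 in Tim4+ and from 59.1 to 159 in Tim4- KCs. The 8 markers of Ly6C-low monocytes summed to 2480 to 2960 CPM in CRE- KCs, 2210 to 2470 in Tim4+ and 2460 to 3030 in Tim4- KCs. In this order *Cx3cr1* ran from 2.58 to 8.71, from 18.5 to 204 and from 55.6 to 353 CPM. *Adgre4*, the highest of them, was lower in CRE+ KCs, from 1300 to 1500, 854 to 1060 and 893 to 1220 CPM. Means were 904, 866 and 1010 CPM for *Itgal*, 356, 359 and 468 for *Fcgr4*, and 23.1, 27.8 and 44.3 for *Nr4a1*. Those of *Eno3* were 8.42, 9.46 and 15.5 CPM, and those of *Ace* and *Spn* at most 2.82 CPM. The part of these markers in the result was not tested.

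**Figure D2:**
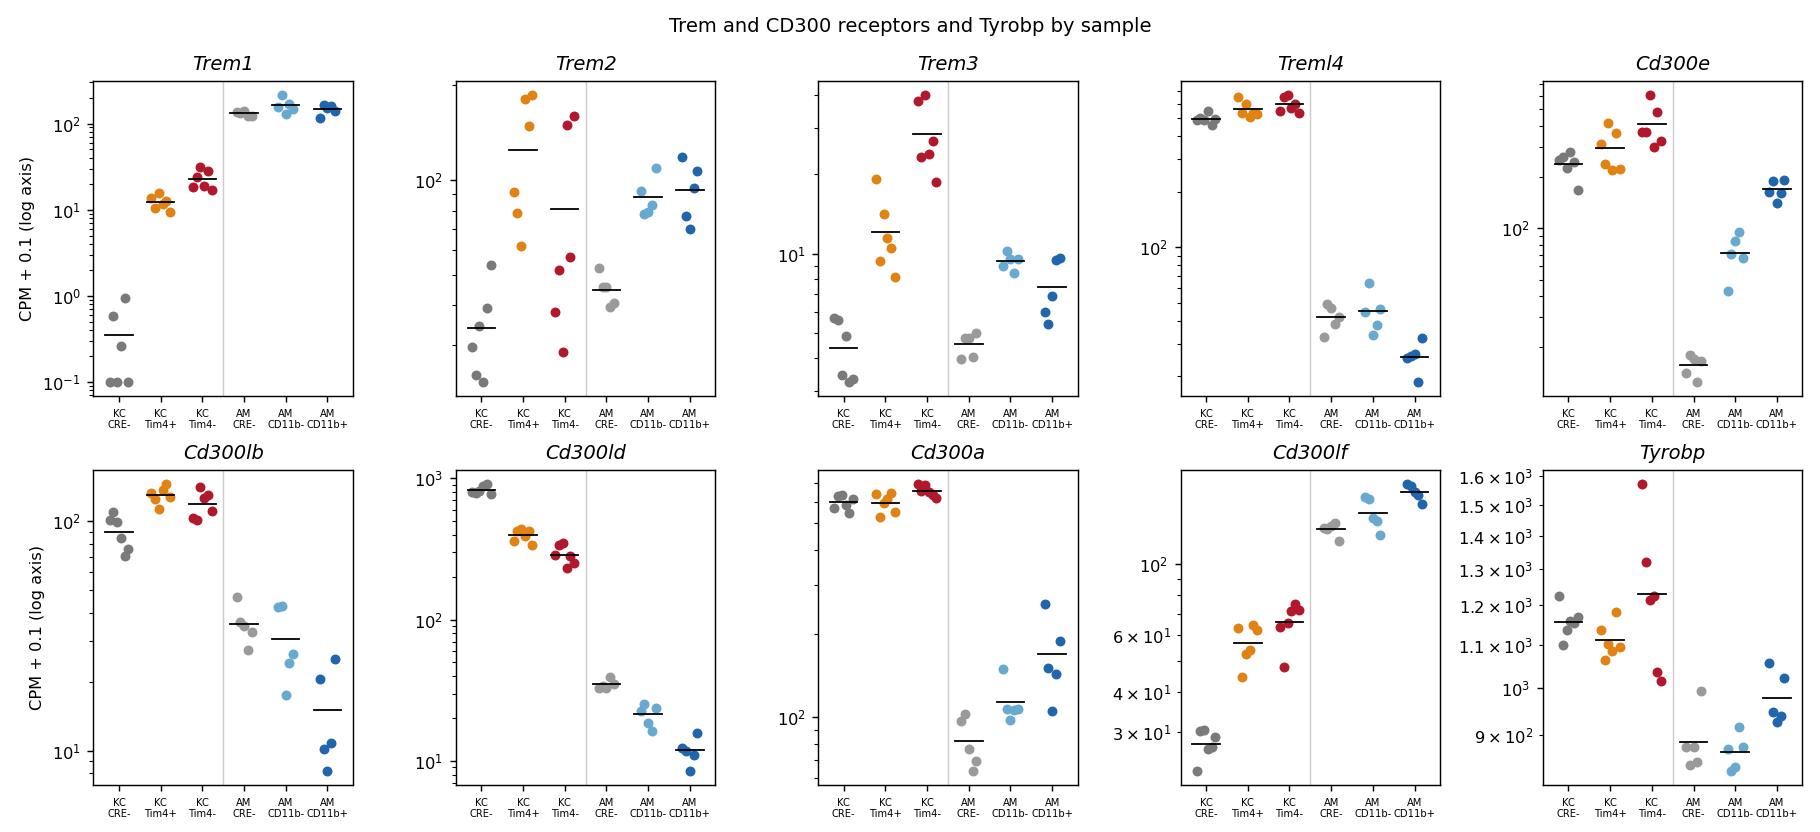
CPM of each of the 10 genes (panels, with 0.1 added and a log axis) in every sample (points) of the 6 groups, with a line at the group mean. *Trem1* lies under 1 CPM in all CRE- KCs, from 9.33 to 31.2 CPM in CRE+ KCs and above 100 CPM in all AM samples.

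*Trem3*, a mouse Trem receptor that pairs with DAP12, rose with the same order. Its lowest, median and highest levels were 3.16, 4.05 and 5.59 CPM in CRE- KCs, 8.04, 10.8 and 19.0 CPM in Tim4+ KCs and 18.6, 25.2 and 39.8 CPM in Tim4- KCs. No CRE+ sample fell into the control range. Its log2 change was 1.47 ± 0.24 (adjusted p = 0.000344) in Tim4+ and 2.71 ± 0.24 (adjusted p = 6.90e-08) in Tim4- KCs.

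*Trem2*, the lipid receptor, rose with a wide spread. Its lowest, median and highest levels were 22.7, 31.8 and 53.6 CPM in CRE- KCs, 61.6, 120 and 186 CPM in Tim4+ KCs and 28.4, 54.3 and 160 CPM in Tim4- KCs. Tim4+ KCs were above all controls (log2 fold change 1.86 ± 0.39, adjusted p = 0.0047), whereas Tim4- KCs overlapped them (1.24 ± 0.39, adjusted p = 0.024). Replicates 4 and 6 stood highest in both CRE+ groups, at 180.4 and 186 CPM in Tim4+ and 149.5 and 159.7 CPM in Tim4- KCs, and the other Tim4- KCs were at 28.4 to 56.9 CPM. The call in Tim4- KCs was lost without Tim4- replicate 4 (0.97, adjusted p = 0.074) or replicate 6 (0.92, adjusted p = 0.075), and without CRE- replicate 2 (1.15, adjusted p = 0.050) or replicate 4 (1.15, adjusted p = 0.0538). It was also lost with limma-voom (just under 1, adjusted p = 0.0881) and over replicates 1 to 4 only (1.27, adjusted p = 0.060), the samples with *Xist*.

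*Cd300lf*, an inhibitory receptor that is also the entry receptor of murine norovirus, rose in both groups, whose direct difference was 0.22 (Tim4- over Tim4+, log2, 95% interval -0.023 to 0.45). Its lowest, median and highest levels were 22.6, 27.8 and 30.4 CPM in CRE- KCs, 44.5, 57.9 and 64.5 CPM in Tim4+ KCs and 47.6, 68.3 and 75.0 CPM in Tim4- KCs. All CRE+ samples were above all controls. On the log2 scale it changed by 1.02 ± 0.12 (adjusted p = 5.42e-06) in Tim4+ and 1.24 ± 0.12 (adjusted p = 1.29e-07) in Tim4- KCs. The Tim4+ value sat at the fold threshold and dropped under it without CRE- replicate 1 (0.97, adjusted p = 2.47e-05) and over replicates 1 to 4 only (0.93, adjusted p = 0.0029). *Cd300lf* overlaps *Rab37* on the other strand, and the strand setting of the counting is not given in the sources used here. *Rab37*, looked at after its values were seen, had 6 to 48 counts in CRE- KCs, 10 to 153 in Tim4+ and 10 to 235 in Tim4- KCs, against 462 counts or more of *Cd300lf*, and it was called higher in Tim4- KCs (2.25 ± 0.58, adjusted p = 0.0070).

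*Cd300ld*, the highest receptor of CRE- KCs, fell. Its lowest, median and highest levels were 773, 806 and 911 CPM in CRE- KCs, 335, 407 and 436 CPM in Tim4+ KCs and 232, 282 and 347 CPM in Tim4- KCs. No CRE+ sample reached the lowest control. These levels gave a log2 fold change of -1.09 ± 0.092 (adjusted p = 8.05e-08) in Tim4+ and -1.54 ± 0.093 (adjusted p = 2.10e-10) in Tim4- KCs. Per kilobase it went from above *Treml4* in every CRE- KC sample to below it in every CRE+ KC sample. Of the 50-base windows of its transcript, 3.9% also occur in transcripts of other genes, most of them in *Cd300lf* and the rest in its copies *Cd300ld2* to *Cd300ld5*, and reads from these could not be told apart by such windows.

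The other 5 members moved less in KCs. *Cd300e*, whose receptor is known from monocytes, had a lowest, median and highest level of 169, 248 and 282 CPM in CRE- KCs and of 298, 368 and 603 CPM in Tim4- KCs. These ranges did not overlap, and the log2 fold change of 0.75 ± 0.18 (adjusted p = 0.0040) was under the fold threshold, as were those of *Cd300lb* in Tim4+ (0.51 ± 0.11, adjusted p = 0.0048) and Tim4- KCs (0.38 ± 0.11, adjusted p = 0.014) and of *Treml4* in Tim4- KCs (0.24 ± 0.073, adjusted p = 0.019). *Tyrobp* gave -0.08 (95% interval -0.25 to 0.090) in Tim4+ and 0.07 (-0.10 to 0.24) in Tim4- KCs. *Cd300a* gave -0.02 (-0.15 to 0.10) and 0.12 (-0.0046 to 0.25). The adaptor and the inhibitory *Cd300a* thus stayed within 0.25 on the log2 scale at the limits of all 4 intervals.

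Tim4- KCs were then compared directly with Tim4+ KCs. Only *Trem3* was called among the members, higher in Tim4- KCs by 1.23 ± 0.23 (log2, adjusted p = 0.0011), where 5.45% of all genes were called, 0.440% higher and 5.01% lower. The adjusted p alone was passed by 2 members and 11.5% of all genes, and the groups did not overlap for 1 member, *Trem1*, and 5.87% of all genes. The *Trem3* ranges overlapped, since Tim4+ replicate 1 at 19.0 CPM was above Tim4- replicate 6 at 18.6 CPM. *Cd300ld* was lower in Tim4- KCs by -0.45 ± 0.092 (adjusted p = 0.0023), under the fold threshold. *Trem1* was higher in every Tim4- sample, but its change of 0.91 ± 0.39 did not pass the test (adjusted p = 0.15). *Trem2* was lower on average in Tim4- KCs (-0.63, 95% interval -1.42 to 0.17, adjusted p = 0.32). In every replicate number the Tim4- sample was below the Tim4+ sample. The labels do not say whether samples of the same number share a mouse, and the fit did not pair them.

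CRE+ and CRE- cells were compared in AMs in the same way. In CD11b- AMs *Cd300e* and *Trem3* rose and no member fell, where 6.50% of 11573 genes tested were called, 3.98% higher and 2.51% lower. In CD11b+ AMs *Cd300e*, *Cd300a* and *Trem2* rose and *Cd300ld* and *Cd300lb* fell, where 15.3% of all genes were called, 9.57% higher and 5.68% lower. The adjusted p alone was passed by 5 members and 25.7% of all genes in CD11b- AMs and by 8 members and 43.2% in CD11b+ AMs. Groups did not overlap for 4 members and 18.1% of all genes in CD11b- AMs and for 8 members and 32.5% in CD11b+ AMs. The median log2 fold change of the members was 0.23 and 0.26, against 0.00 for all genes in CD11b- AMs and -0.01 in CD11b+ AMs. Both groups were compared with the same CRE- AMs. The summed level of the 10 neutrophil markers ran from 91.5 to 116 CPM in CRE- AMs, from 1030 to 2640 in CD11b- and from 8330 to 10800 in CD11b+ AMs. Of these *S100a8* (4070 to 5240 CPM in CD11b+ AMs) and *S100a9* (3200 to 4250 CPM) made up most. In CD11b+ AMs *Cxcr2* ran from 498 to 641 CPM, *Csf3r* from 342 to 388 and *Mmp8* from 147 to 275. In CRE- AMs these ran from 2.05 to 4.9, from 26.5 to 49.9 and from 44.4 to 67.4 CPM. *Ltf*, *Mmp9*, *Ngp*, *Retnlg* and *Camp* were at most 24.3, 20.4, 13.8, 4.69 and 3.48 CPM in any AM sample. Among monocyte genes *Ly6c2* ran from 38.9 to 178 CPM in CD11b+ AMs and was at most 0.731 CPM in CRE- and 1.79 CPM in CD11b- AMs, although the 7 Ly6C-high markers together summed to 598 to 1050 CPM in CRE- AMs, mostly *Fn1*, 80.9 to 175 in CD11b- and 367 to 701 in CD11b+ AMs. The part of these markers in the results was not tested.

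*Cd300e* showed the largest change of the members in AMs. Its levels in CRE- AM replicates 1 to 5 were 14.04, 18.04, 17.1, 12.4 and 16.5 CPM. They were 42.9, 70.6, 84.7, 94.8 and 66.5 CPM in CD11b- AMs and 162, 190, 141, 162 and 193 CPM in CD11b+ AMs. The 3 groups formed separate ranges, with every CD11b- sample above every control and every CD11b+ sample above every CD11b- sample. The fitted change was 2.19 ± 0.17 (adjusted p = 1.02e-08) in CD11b- and 3.43 ± 0.17 (adjusted p = 4.25e-12) in CD11b+ AMs, 4.58-fold and 10.7-fold. CD11b+ AMs thereby overlapped only the lower end of the 169 to 282 CPM measured in CRE- KCs. The CD11b+ samples at 162, 141 and 162 CPM lay below that range.

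*Trem2* was higher in both CRE+ AM groups. CRE- AMs had 52.3, 45.8, 45.6, 39.5 and 40.7 CPM. CD11b- AMs had 92.4, 77.8, 78.9, 83.4 and 109 CPM, and CD11b+ AMs had 118, 76.8, 69.6, 94.2 and 107 CPM. All CRE+ samples lay above all controls, and the CRE+ groups overlapped each other. The log2 fold change was 0.97 ± 0.13 (adjusted p = 2.01e-05) in CD11b- AMs, just under the fold threshold, and 1.04 ± 0.13 (adjusted p = 2.41e-06) in CD11b+ AMs, just past it, and between the CRE+ groups it was 0.07 (95% interval -0.21 to 0.34). The CD11b- value passed the threshold without CD11b- replicate 2 or 3 (both 1.01) or CRE- replicate 1 (1.03). The CD11b+ value dropped under it without CD11b+ replicate 1 (0.94) or 5 (0.98), without CRE- replicate 4 (0.9951) and without scaling factors (0.85), with adjusted p of 1.71e-05 or less in each of these 4 fits.

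*Trem3* rose in CD11b- AMs from a low level. It had 3.88, 4.68, 4.66, 3.94 and 4.91 CPM in CRE- AMs, 8.87, 10.1, 9.47, 8.37 and 9.46 CPM in CD11b- AMs and 5.91, 5.28, 6.77, 9.38 and 9.50 CPM in CD11b+ AMs. Controls lay below all CRE+ samples. The log2 fold change was 1.06 ± 0.19 (adjusted p = 0.000296) in CD11b- AMs and 0.72 ± 0.19 (adjusted p = 0.0039), under the fold threshold, in CD11b+ AMs.

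*Cd300a*, which inhibits through its ITIMs and binds phospholipids, rose in CD11b+ AMs. It had 96.5, 103, 76.7, 63.9 and 69.1 CPM in CRE- AMs, 149, 106, 97.2, 106 and 106 CPM in CD11b- AMs and 256, 150, 105, 143 and 188 CPM in CD11b+ AMs. CD11b+ replicate 1 stood highest, and the lowest CD11b+ sample was only just above the highest control. The log2 fold change was 1.03 ± 0.19 (adjusted p = 0.000158) in CD11b+ and 0.46 ± 0.19 (adjusted p = 0.081) in CD11b- AMs. The CD11b+ value was under the fold threshold without CD11b+ replicate 1 (0.83) or 5 (0.98), without CRE- replicate 4 (0.95) or 5 (0.97), without scaling factors (0.84) and with limma-voom (0.98).

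*Cd300ld* and *Cd300lb*, both activating, fell in CD11b+ AMs. *Cd300ld* had 32.9, 33.9, 32.5, 39.3 and 35.1 CPM in CRE- AMs, 22.6, 25.0, 18.5, 16.2 and 23.8 CPM in CD11b- AMs and 12.3, 11.7, 8.44, 10.9 and 15.6 CPM in CD11b+ AMs. The 3 groups did not overlap. The log2 fold change was -0.72 ± 0.15 (adjusted p = 0.0011) in CD11b- AMs, under the fold threshold, and -1.58 ± 0.15 (adjusted p = 4.32e-08) in CD11b+ AMs. *Cd300lb* had 46.5, 36.3, 34.8, 27.3 and 32.8 CPM in CRE- AMs, 42.4, 42.7, 17.3, 24.0 and 26.4 CPM in CD11b- AMs and 20.5, 10.05, 8.08, 10.7 and 25.0 CPM in CD11b+ AMs. Every CD11b+ sample was below every control, and CD11b- AMs ran over the range between them. The log2 fold change was -1.28 ± 0.29 (adjusted p = 0.0012) in CD11b+ and -0.23 ± 0.28 (adjusted p = 0.61) in CD11b- AMs.

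*Trem1*, *Cd300lf*, *Treml4* and *Tyrobp* were not called in AMs. *Trem1* ran from 122 to 138 CPM in CRE- AMs, from 127 to 212 in CD11b- and from 117 to 165 in CD11b+ AMs, with log2 fold changes of 0.31 ± 0.11 (adjusted p = 0.048) and 0.16 ± 0.11 (adjusted p = 0.27). *Cd300lf* was higher in every CD11b+ AM, from 154 to 177 CPM against 118 to 134 CPM in CRE- AMs, by 0.37 ± 0.073 (adjusted p = 0.000326). *Treml4* was lower in every CD11b+ AM, from 18.5 to 31.9 CPM against 32.4 to 49.1 CPM, by -0.73 ± 0.17 (adjusted p = 0.0014). *Tyrobp* gave -0.04 (95% interval -0.16 to 0.078) in CD11b- and 0.12 (0.0064 to 0.24) in CD11b+ AMs.

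CD11b+ and CD11b- AMs were compared directly as well. *Cd300e* was higher in CD11b+ AMs by 1.23 ± 0.16 (log2, adjusted p = 4.84e-06) and *Cd300lb* lower by -1.05 ± 0.29 (adjusted p = 0.0072), where 10.2% of all genes were called, 6.85% higher and 3.30% lower. The adjusted p alone was passed by 7 members and 36.4% of all genes, and groups did not overlap for 4 members and 25.8% of all genes. *Cd300lb* overlapped between the groups, and its change dropped under the fold threshold without CD11b- replicate 1 (-0.91) or 2 (-0.90), or CD11b+ replicate 2 (-0.94), 3 (-0.89) or 4 (-0.95). Without scaling factors *Treml4* (-1.01) and *Cd300ld* (-1.03) passed it too, against -0.84 and -0.86 with them.

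**Figure D3:**
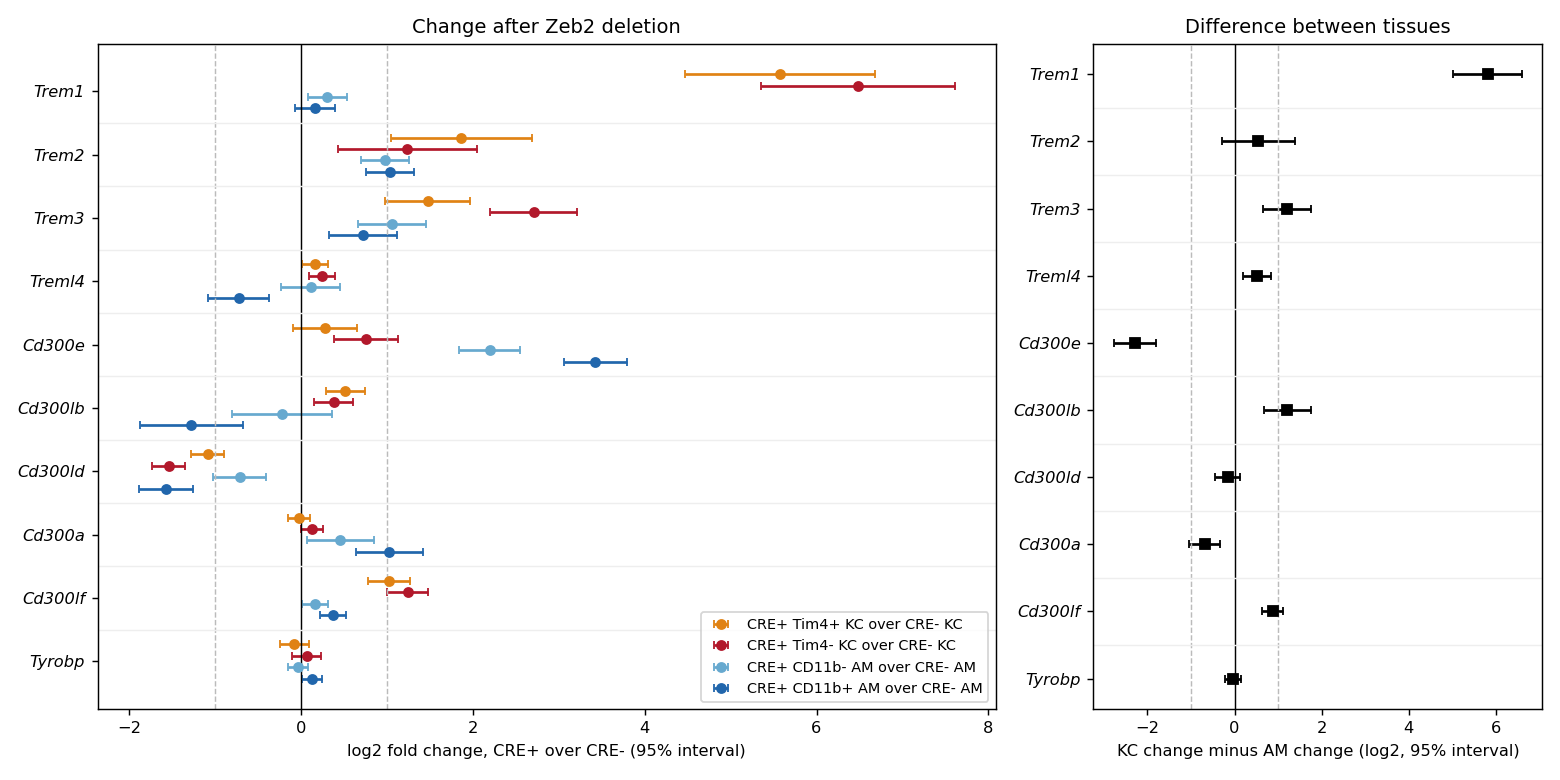
Log2 fold change of each gene (rows) between CRE+ and CRE- macs (left, 4 comparisons) and the mean change in KCs minus that in AMs (right), with 95% intervals from the edgeR fits and dashed lines at -1 and 1. The KC points of *Trem1* lie at 5.57 and 6.48, the AM points of *Cd300e* at 2.19 and 3.43, and all points of *Cd300ld* lie below 0.

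The difference between tissues was tested itself, by subtracting the mean change of the CRE+ AM groups from that of the CRE+ KC groups. Of the members 3 had the more positive change in KCs and 1 in AMs past both thresholds, where 8.15% of 13294 genes were called, 3.50% higher and 4.65% lower, and 7 members and 19.5% of all genes passed the adjusted p alone. They were *Trem1* (5.81 ± 0.39, adjusted p = 2.70e-13, and 6.69 without CRE- KC replicate 5), *Trem3* (1.21 ± 0.27, adjusted p = 0.0011) and *Cd300lb* (1.21 ± 0.27, adjusted p = 0.000952) on the KC side and *Cd300e* (-2.29 ± 0.24, adjusted p = 5.59e-09) on the AM side. *Cd300lf* (0.87 ± 0.12, adjusted p = 1.91e-06), *Treml4* (0.52 ± 0.15, adjusted p = 0.014) and *Cd300a* (-0.68 ± 0.17, adjusted p = 0.0041) differed under the fold threshold. *Cd300ld* did not pass the test, with a difference of -0.16 (95% interval -0.45 to 0.13), nor did *Trem2* (0.55, -0.28 to 1.38) and *Tyrobp* (-0.04, -0.22 to 0.14). Tissue and Cre line go together in this design and cannot be told apart. Sex differed in part as well, since only KC replicates 5 and 6 held Y-linked counts and no *Xist*. Over KC replicates 1 to 4 only, no member changed its call for this difference.

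Set by group, *Cd300ld* was highest in CRE- KCs, then in Tim4+ KCs, Tim4- KCs, CRE- AMs, CD11b- AMs and CD11b+ AMs, and only Tim4+ and Tim4- KCs overlapped among these neighbours. *Cd300e* followed the order Tim4- KCs, Tim4+ KCs, CRE- KCs and CD11b+ AMs, which overlapped from neighbour to neighbour, and then CD11b- and CRE- AMs, each apart. *Trem1* was highest in the 3 AM groups, which overlapped, and then apart in Tim4- KCs, Tim4+ KCs and CRE- KCs. For *Trem2* every neighbour in the order overlapped the next.

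Neighbours in the clusters were read beside the members, chosen by position after values had been seen. *B430306N03Rik*, between *Treml2* and *Trem2* on chromosome 17, was at 330 ± 23.5 CPM (SD, n = 6) in CRE- KCs and 2.55 ± 0.991 CPM (SD, n = 5) in CRE- AMs. It rose in CD11b- (1.80 ± 0.36, adjusted p = 0.000935) and CD11b+ AMs (1.86 ± 0.36, adjusted p = 0.000307) to means of 8.96 and 9.37 CPM, and gave -0.27 and -0.29 in Tim4+ and Tim4- KCs. *Treml2* was at most 6.27 CPM and *Cd300c* at most 2.08 CPM in any sample, and *Cd300c* was called higher in Tim4- KCs (3.21 ± 0.94, adjusted p = 0.016) at a mean of 0.848 CPM. The *Trem* cluster thus held *Treml4* and *B430306N03Rik*, higher in KCs, beside *Trem1*, higher in AMs, and the CD300 cluster held 4 KC-high members beside *Cd300lf*, higher in AMs.

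Other genes of the families and of the pathway were read from lists. The list counts that follow stand beside these shares of all genes tested. In Tim4+ KCs 1.94% were called higher and 0.376% lower, and in Tim4- KCs 3.43% and 5.39%. The shares were 3.98% and 2.51% in CD11b- AMs and 9.57% and 5.68% in CD11b+ AMs. Of 12 further *Trem* and *Cd300* symbols 5 were in the files, and *Cd300lg*, which encodes an endothelial member, was the only one at 10 CPM or more. It fell in CD11b- (-2.52 ± 0.39, adjusted p = 6.81e-05) and CD11b+ AMs (-3.82 ± 0.42, adjusted p = 3.48e-07) from 13.2 ± 5.4 CPM (SD, n = 5) in CRE- AMs, and was lower in Tim4- KCs than in CRE- KCs (-1.71 ± 0.37, adjusted p = 0.0017, with overlap) and than in Tim4+ KCs (-2.19 ± 0.37, adjusted p = 0.000478). The 6 liver endothelium markers summed to 539 to 1550 CPM in CRE- KCs, 886 to 2580 in Tim4+ and 298 to 391 in Tim4- KCs, and their part in the result was not tested. In AMs the same list summed to 0.665 to 2.73 CPM in CRE-, 3.5 to 12 in CD11b- and 25.8 to 40.1 in CD11b+ AMs, a difference made by *Lyve1*, with means of 0.117, 5.11 and 31.4 CPM. The means of *Kdr* were 1.46, 2.1 and 1.3 CPM, and *Stab2*, *Clec4g*, *Oit3* and *Dnase1l3* were each at most 0.654 CPM in any AM sample.

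Among 14 genes of ligands and shedding enzymes, 1 of 13 tested rose in either CRE+ KC group and none fell. It was *Pglyrp1*, a peptidoglycan recognition protein known as a TREM1 ligand, which went from 0.250 ± 0.141 CPM in CRE- KCs to 23.9 ± 10.9 in Tim4+ and 40.6 ± 16.4 CPM (SD, n = 6) in Tim4- KCs (6.55 ± 0.42, adjusted p = 3.09e-09, and 7.32 ± 0.43, adjusted p = 1.49e-10). In CD11b+ AMs 2 of 13 rose and 1 fell, and the 2 that rose were *Pglyrp1*, at a mean of 5.51 CPM and named here after its values were seen, and *Apoe*. *Apoe*, an apolipoprotein bound by TREM2, went from 41.9 ± 14.5 to 1730 ± 350 CPM (SD, n = 5; 5.35 ± 0.23, adjusted p = 2.65e-13), and *Sema6d*, a semaphorin whose receptor Plexin-A1 joins TREM2 and DAP12, from 30.4 ± 7.35 to 1.95 ± 1.13 CPM (-3.97 ± 0.34, adjusted p = 1.02e-08). *Apoe* and *Sema6d* moved in CD11b- AMs by 2.995 ± 0.20 (adjusted p = 1.93e-09) and -1.70 ± 0.30 (adjusted p = 0.000269). The median over the list was -0.01 in Tim4+ KCs, -0.02 in Tim4- KCs, -0.12 in CD11b- AMs and 0.05 in CD11b+ AMs, close to that of all genes tested.

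Other receptors that pair with DAP12 also changed. In Tim4- KCs 3 of 7 tested rose and none fell, with a list median of -0.25, and *Sirpb1a* went from 3.19 ± 1.31 CPM in CRE- KCs to 47.8 ± 12.3 CPM (SD, n = 6; 3.88 ± 0.27, adjusted p = 1.41e-09). In CD11b+ AMs 3 of 6 rose and none fell, with a list median of 1.13, led by *Clec5a*, an activating lectin, from 25.5 ± 3.92 to 247 ± 19.0 CPM (SD, n = 5; 3.26 ± 0.096, adjusted p = 1.89e-15). Tim4+ KCs had 1 of 7 higher, again *Sirpb1a* (2.33 ± 0.25, adjusted p = 3.49e-06), and CD11b- AMs 2 of 6, *Clec5a* (2.39 ± 0.094, adjusted p = 8.65e-13) and *Pilrb1* (1.12 ± 0.14, adjusted p = 1.01e-05). A further list held genes listed as inhibitory ITIM receptors, and whether each mouse protein carries an ITIM was not checked, *Cd33* and *Lilra6* included. Of its 12 genes tested, none was called in Tim4+ KCs, 1 rose in Tim4- KCs, 1 rose in CD11b- AMs, and 4 rose and 3 fell in CD11b+ AMs. *Cd33* rose in the last 3 groups by 1.05 ± 0.15, 1.10 ± 0.084 and 1.94 ± 0.085 (adjusted p = 3.10e-05 or less), and the lectin *Clec4a2* fell in CD11b+ AMs by -4.08 ± 0.15 (adjusted p = 4.27e-14).

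Signalling genes were read beside the share of all genes called. This was 2.31% in Tim4+ KCs, 8.82% in Tim4- KCs, 6.50% in CD11b- AMs and 15.3% in CD11b+ AMs. Of 10 other ITAM adaptors and kinases, 1 rose in Tim4+ KCs, 1 rose and 1 fell in Tim4- KCs, none of 9 tested was called in CD11b- AMs and 2 rose in CD11b+ AMs. The kinase *Tec* rose in Tim4- KCs (2.05 ± 0.41, adjusted p = 0.000826) and CD11b+ AMs (1.03 ± 0.15, adjusted p = 1.03e-05), and the kinase *Src* in CD11b+ AMs (3.96 ± 0.44, adjusted p = 3.23e-07). Of 19 genes of the activating signal none was called in Tim4+ KCs and CD11b- AMs, 1 rose in Tim4- KCs, and 4 rose and 1 fell in CD11b+ AMs. *Fcer1g*, named for its pairing with *Cd300ld* after its values were seen, ran from 936 to 1170 CPM in CRE- KCs and from 672 to 781 CPM in CRE- AMs, and changed by 0.07 in Tim4+ KCs, 0.23 in Tim4- KCs, 0.19 in CD11b- AMs and 0.59 in CD11b+ AMs (log2), none past the fold threshold. Of the 10 phosphatases and negative regulators behind ITIMs none was called in either KC group or in CD11b- AMs, and 1 fell in CD11b+ AMs, the adaptor *Dok2* (-2.69 ± 0.18, adjusted p = 2.24e-10).

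Genes of lipid-associated macs, a programme tied to *Trem2* in other tissues, rose in part. Of 15 genes 4 rose in Tim4+ KCs, 3 in Tim4- KCs and 2 in CD11b- AMs, where 1 fell, and 4 rose and 2 fell in CD11b+ AMs. In KCs the integrin *Itgax* (2.47 ± 0.31, adjusted p = 1.90e-05, in Tim4+ and 3.39 ± 0.32, adjusted p = 1.28e-07, in Tim4- KCs) and the tetraspanin *Cd9* (2.22 ± 0.20, adjusted p = 2.82e-07, and 1.98 ± 0.20, adjusted p = 4.09e-07) rose in both groups. In AMs *Cd63* (3.16 ± 0.11, adjusted p = 3.18e-13, in CD11b- and 3.88 ± 0.12, adjusted p = 1.89e-15, in CD11b+ AMs) and *Gpnmb* (1.44 ± 0.074, adjusted p = 3.13e-11, and 2.51 ± 0.077, adjusted p = 2.32e-15) rose, while the lipid carrier *Fabp4* fell (-1.19 ± 0.13, adjusted p = 9.92e-07, and -2.43 ± 0.13, adjusted p = 1.50e-11). In Tim4+ KCs *Fabp4* rose instead (1.07 ± 0.25, adjusted p = 0.0099), and *Spp1* also fell in CD11b+ AMs (-1.32 ± 0.26, adjusted p = 0.000342). The list median was 0.81 in Tim4+ KCs, 0.21 in Tim4- KCs, 0.08 in CD11b- AMs and 0.79 in CD11b+ AMs.

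**Figure D4:**
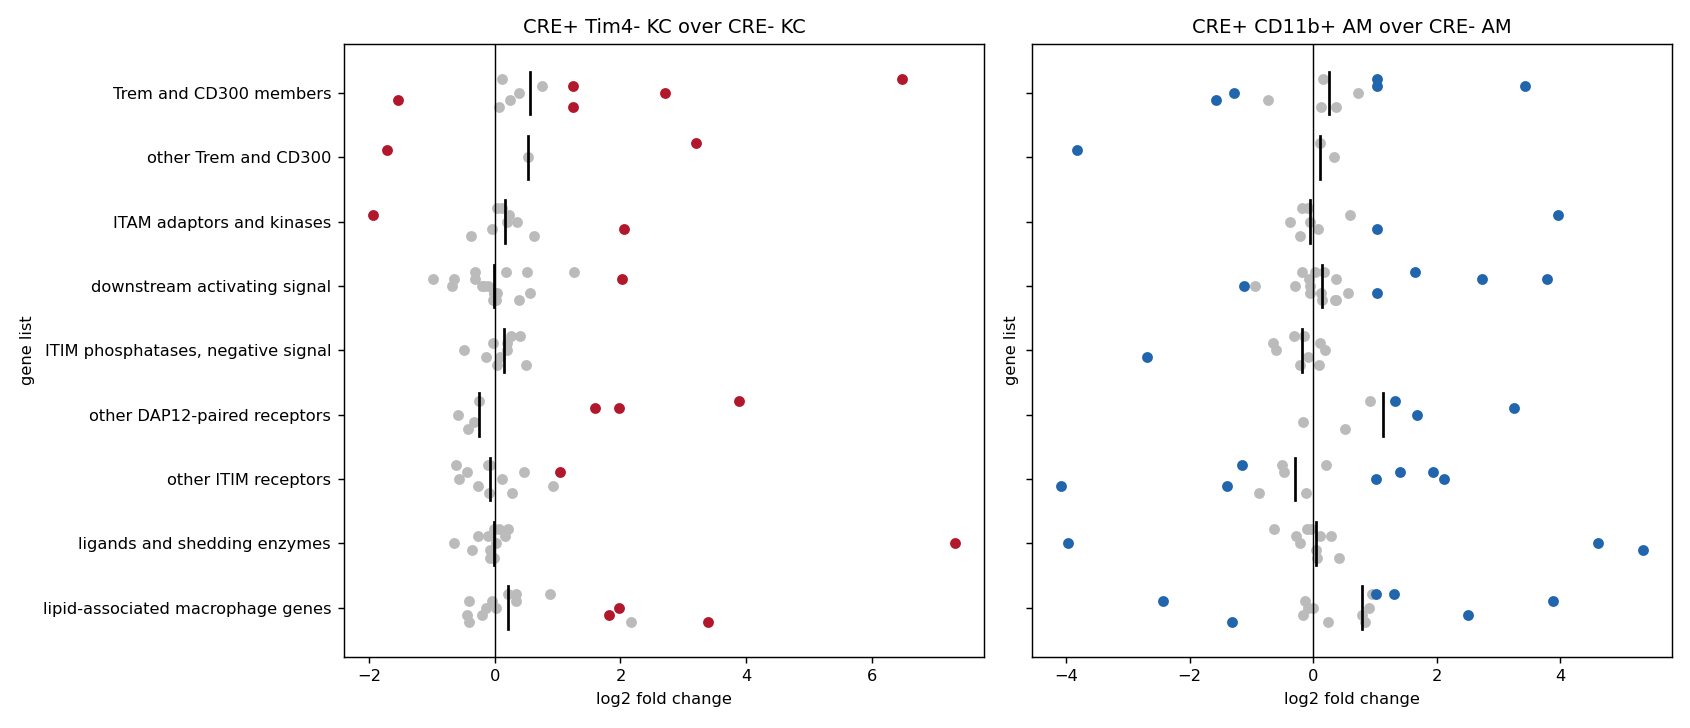
Log2 fold change of every tested gene (points) of the 9 lists in Tim4- KCs (left) and CD11b+ AMs (right) over their CRE- controls, with called genes in colour, others in grey and a line at the list median. Far points are *Trem1* (6.48) and *Pglyrp1* (7.32) in KCs and *Apoe* (5.35) and *Clec4a2* (-4.08) in AMs.

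Genes whose log2 CPM followed each member over the 33 samples were listed as a description, among 13294 genes, and the points share tissue and group, so that a difference between groups alone can give a high r. *Cd300ld* was most like *Plod1*, *Ephx1* and *Aldh2* (Pearson r 0.994, 0.992 and 0.989), *Cd300lf* like *Itgax* (0.984), *Cd300a* like *Clec12a* (0.987) and *Cd300e* like *Fam167a*, *Oasl2* and *C3ar1* (0.969, 0.965 and 0.963). *Trem1* was most like *Ttc39a* (0.972) and *Lsp1* (0.967), *Treml4* like *Vrk2* (0.990), and *Cd300lb* like *Slc7a7* (0.965). *Trem2* had no close match, with *Vil1* highest at 0.735. Within the members *Cd300ld* and *Treml4* gave the highest r (0.960) and *Cd300ld* and *Cd300lf* the lowest (-0.954).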

How the data were processed

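Bulk RNA-seq counts of 33 sorted KC and AM samples were analysed. The authors trimmed reads with Trimmomatic 0.35, mapped them to mm10 with TopHat2 2.1.0 and used HTSeq-count for counting; the deposited values are raw read counts per gene symbol. The annotation and strand setting of the counting are not given in the sources used here. Each table held 24421 genes and 5 tally rows, which took 5.88 to 10.1% of reads and were left out. Groups came from the labels. The members and the gene lists were chosen with earlier results of these data known.

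Tests ran on the counts in R 4.3.3 using edgeR 4.0.16 (TMM factors, filter on low counts, quasi-likelihood test) over all genes, within each tissue's 3 groups, between controls, and over all samples for the interaction. Benjamini-Hochberg adjustment ran over all genes tested, and a call needed an adjusted p under 0.05 with a log2 fold change beyond 1 either way. The standard error (SE) was the fold change over the square root of F. CPM used TMM factors over all samples, and log2 CPM a prior count of 0.5. Named genes were all members and, from the other lists, at most 3 called genes per direction with groups that did not overlap and a mean of at least 10 CPM, of which some are described. Positions and exon lengths came from GENCODE M21, which held 95.72% of the symbols. Scripts were tested on simulated data. Alternatives were limma-voom (limma 3.58.1), DESeq2 1.42.0, other scaling, filters and sample sets.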

Additional observations from a re-analysis of the deposited data

Results flagged for a closer look

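Among 60 groups of member values, 2 held a sample far from the others by Dixon's criterion, and chance gives about 1 in 20 such groups. They were *Tyrobp* in CRE- AM replicate 5, at 992 CPM, and *Cd300a* in CD11b- AM replicate 1, at 149 CPM.

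The change after Zeb2 deletion differed between KCs and AMs for 7 of the 10 members (adjusted p under 0.05, edgeR, interaction term). It was more positive in KCs for *Trem1* by 5.81, *Trem3* by 1.21, *Cd300lb* by 1.21, *Cd300lf* by 0.87 and *Treml4* by 0.52 on the log2 scale, and more positive in AMs for *Cd300e* (-2.29) and *Cd300a* (-0.68). The value for *Trem1* rests on 0 to 17 counts in CRE- KCs, ran from 5.53 to 6.69 on leaving out 1 sample, the highest without CRE- KC replicate 5, and was 7.16 with limma-voom. Tissue and Cre line cannot be told apart in these differences, and sex differed in part between the tissues.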

How the results depend on the processing

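No change of a called member turned its direction under any setting. Without a fold threshold, at an adjusted p under 0.05 alone, members called numbered 8 in Tim4- KCs over CRE- KCs, 2 in Tim4- over Tim4+ KCs, 5 in CD11b- and 8 in CD11b+ AMs over CRE- AMs, 7 in CD11b+ over CD11b- AMs and 7 for the interaction, and all genes called numbered 7680 between controls, 761 and 3169 in Tim4+ and Tim4- KCs, 1433 between these, 2972 and 5004 in CD11b- and CD11b+ AMs, 4215 between these and 2597 for the interaction. Without scaling factors 3 members were called in CD11b+ over CRE- and 4 in CD11b+ over CD11b- AMs. Over KC replicates 1 to 4 only, 190 genes were called in Tim4+ KCs, against 289 with all samples. Leaving out each sample gave 3 to 5 members called in CD11b+ over CRE- AMs and 1 to 2 in CD11b+ over CD11b- AMs. Same-numbered samples correlated in their deviations by more than 0.1 in 5 of 6 pairs of Tim4+ and Tim4- KCs (lowest 0.079, each best with its own number) and in at most 2 pairs of any other comparison, so the numbers were not taken as pairs. With the replicate block *Trem2* in Tim4- KCs (0.97, adjusted p = 0.011) and *Cd300a* in CD11b+ AMs (0.99, adjusted p = 1.11e-05) dropped under the fold threshold and no other member changed its call. With DESeq2, the other scaling, no filter and fits on only the groups compared or on all samples, every member kept its call. Depth limits *Trem1* most, with 0 to 17 counts per sample in CRE- KCs.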
